A study of Homo sapiens with 8 samples.

Results

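The 55 genes described here encode the DNA replication machinery and the factors that control passage from G1 into S phase. They were taken from a list of symbols, and each was read by 1 Affymetrix HG-U133 Plus 2.0 probe set annotated to exactly 1 symbol, the one with the highest mean signal over all 8 arrays. All 55 were measured, of 19775 genes in all, and the list was drawn up with earlier results of these data known. MDA-MB-453 is an established human breast cancer line of luminal apocrine type that grows without estrogen receptor and carries the androgen receptor. Cells were held for 3 days in steroid-depleted medium, without phenol red and with charcoal-stripped serum, and total RNA was then taken from 4 groups of 2 biological replicates. The groups were cells given 10 nM 5α-dihydrotestosterone (DHT, a potent androgen) for 4 h, 16 h or 48 h and cells given vehicle. No time is given for the vehicle cells, which serve as the control at all 3 times, so DHT and time in culture cannot be told apart, and the 3 comparisons with vehicle share their control arrays.

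Replication is prepared in G1, when the origin recognition complex, CDC6 and CDT1 load the ring-shaped helicase MCM2 to MCM7 on DNA, and it starts when kinases recruit CDC45 and the GINS complex to that ring. DNA polymerases held by the sliding clamp PCNA then copy both strands from deoxynucleotides made by ribonucleotide reductase, thymidylate synthase and related enzymes. Most of these genes are textbook targets of E2F transcription factors, which are held back by RB1 until cyclin D and cyclin E kinases act; E2F1 and E2F2 activate such genes and E2F8 represses them. In cultured cells their mRNA is high while cells proliferate and low in resting cells.

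The known androgen target FKBP5 gave a check of the response: its log2 change against vehicle was 0.98 ± 0.10 at 4 h, 2.45 ± 0.10 at 16 h and 3.34 ± 0.10 at 48 h (SE, n = 2 arrays per group, limma adjusted p = 0.0032, 1.6e-07 and 6.1e-09). Luminal markers were bright on these arrays, with median log2 signals of 12.1 for FOXA1, 13.2 for ERBB2 and 13.8 for KRT18. ESR1 had 8.48 and PGR 7.38, against a median of 8.44 over all genes, each read by its brightest probe set. The array medians over all probe sets were 7.59 to 7.63. The androgen receptor gene itself is not analysed here. In bulk RNA, fewer cells in S phase and less mRNA in each cell cannot be told apart. The DHT 16 h replicate 2 array stood apart in its RNA controls. Its 3′ minus 5′ difference was 1.52 log2 units for ACTB, against 0.20 to 0.94 on the other 7 arrays, and 0.82 for GAPDH, against 0.19 to 0.35.

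The promoter windows of the genes were examined first, because E2F factors act there. RefSeq promoter windows on GRCh38.p14, from 250 bases before to 50 bases after the start the table uses for each gene, were found for 45 of the 55 genes; MCM4, MCM5, GINS4, POLD3, RPA2, RPA3, CCND1, CCNE2, CDK2 and E2F8 had no entry. That start was the outer edge of the annotated gene for 40 of the 45 and lay inside the gene for 5: by 171 bases in RRM2, 454 in CDC45, 5080 in ORC1, 6421 in UHRF1 and 93265 in PRIM2. The E2F motif was searched as TTTCCCGC, TTTCGCGC, TTTGGCGC or TTTGGCGG on both strands, and matches on opposite strands could overlap, as they did in MCM6 and MCM2. At least 1 match lay in 24 of the 45 windows (53.3%), against 3.35% of all 35116 promoter windows and 4.19% of those of protein-coding genes. The windows shown are those of the 6 genes with an E2F match that were called lower after 48 h of DHT with the largest falls. They are printed 5′ to 3′ on the strand of the gene, with the match, on either strand, in capitals.
TYMS: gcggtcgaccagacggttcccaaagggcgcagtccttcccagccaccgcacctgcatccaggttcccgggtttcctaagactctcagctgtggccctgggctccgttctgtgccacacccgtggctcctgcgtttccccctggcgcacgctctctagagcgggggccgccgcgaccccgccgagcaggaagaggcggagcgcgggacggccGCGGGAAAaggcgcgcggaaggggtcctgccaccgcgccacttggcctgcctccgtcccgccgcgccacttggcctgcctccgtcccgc
LIG1: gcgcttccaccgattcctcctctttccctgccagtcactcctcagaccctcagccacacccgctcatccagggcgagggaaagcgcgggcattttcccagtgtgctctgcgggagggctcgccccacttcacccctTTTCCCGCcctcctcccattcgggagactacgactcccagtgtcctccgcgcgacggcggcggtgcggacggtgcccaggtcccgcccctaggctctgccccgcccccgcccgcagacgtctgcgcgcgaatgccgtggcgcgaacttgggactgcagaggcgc
UHRF1: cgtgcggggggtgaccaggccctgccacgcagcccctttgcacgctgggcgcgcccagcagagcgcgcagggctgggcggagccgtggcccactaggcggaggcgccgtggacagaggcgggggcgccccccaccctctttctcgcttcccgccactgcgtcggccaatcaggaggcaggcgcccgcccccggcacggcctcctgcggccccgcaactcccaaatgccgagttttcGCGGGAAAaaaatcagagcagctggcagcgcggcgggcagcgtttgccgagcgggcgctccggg
PCNA: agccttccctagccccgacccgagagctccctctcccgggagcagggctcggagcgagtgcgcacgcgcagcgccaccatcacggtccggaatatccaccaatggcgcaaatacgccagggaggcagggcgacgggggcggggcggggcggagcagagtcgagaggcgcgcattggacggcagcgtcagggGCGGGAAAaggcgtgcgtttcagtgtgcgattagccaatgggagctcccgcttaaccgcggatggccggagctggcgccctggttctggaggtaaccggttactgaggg
MCM7: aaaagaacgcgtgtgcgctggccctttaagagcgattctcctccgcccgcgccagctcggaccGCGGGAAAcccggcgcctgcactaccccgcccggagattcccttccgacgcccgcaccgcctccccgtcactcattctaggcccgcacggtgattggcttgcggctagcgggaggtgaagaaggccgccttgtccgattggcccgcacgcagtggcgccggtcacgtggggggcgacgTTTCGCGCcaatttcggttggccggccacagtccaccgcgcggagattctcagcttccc
CDC45: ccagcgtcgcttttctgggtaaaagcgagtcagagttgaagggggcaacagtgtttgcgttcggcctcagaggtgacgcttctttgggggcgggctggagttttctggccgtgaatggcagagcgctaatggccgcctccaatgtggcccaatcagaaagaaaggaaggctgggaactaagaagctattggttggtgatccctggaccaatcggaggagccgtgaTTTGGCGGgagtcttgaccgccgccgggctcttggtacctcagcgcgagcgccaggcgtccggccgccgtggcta
The TYMS window lies at chr18:657403-657702 on the plus strand, LIG1 at chr19:48170295-48170594 on the minus strand and UHRF1 at chr19:4909251-4909550 on the plus strand. That of PCNA lies at chr20:5126573-5126872 on the minus strand, MCM7 at chr7:100101348-100101647 on the minus strand and CDC45 at chr22:19479670-19479969 on the plus strand.

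Counting the start used by each window as base 1, with no base 0, the first base of the match was at -39 in TYMS, -114 in LIG1, -14 in UHRF1, -59 in PCNA and -25 in CDC45. MCM7 held a match at -187 and another at -9. Over all 24 genes there were 33 matches, of which 27 lay within 100 bases of the start, with a median first base of -28. MCM6, a helicase subunit, held the most, with 4. The motif was in 9 of the 18 genes with a window that were called lower at 16 h or 48 h and in 15 of the 27 that were called at neither time. The CCAAT box (CCAAT) was in 51.1% of the 45 windows, against 34.6% of all windows and 34.7% of those of protein-coding genes. The Sp1 motif GGGCGG was in 68.9%, against 45.0% of all windows and 56.3% of protein-coding ones. The cell cycle homology region motif TTTGAA, known from mitotic genes, was in 4.44%, against 15.2% of all and 12.4% of protein-coding windows. The androgen receptor motif AGAACA was in 8.89%, against 14.8% of all and 11.7% of protein-coding windows. These short exact matches are descriptions of the windows and do not show that a factor binds there.

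After 4 h of DHT none of the 55 genes was called different from vehicle. At 16 h and 48 h many were called lower and none was called higher. A gene was called at a limma adjusted p below 0.05, adjusted over all 19775 genes. At 4 h, 0 genes were called in either direction, where 0.0708% of all genes were called lower and 0.106% higher; 4 of the 55 had an unadjusted p below 0.05, all of them lower, which is 7.27% of the 55, against 7.84% of all genes in either direction and 4.28% lower. At 16 h, 19 were called lower and 0 higher, where 4.30% of all genes were called lower and 2.55% higher. At 48 h, 16 were called lower and 0 higher, where 6.38% of all genes were called lower and 3.13% higher. At an unadjusted p below 0.05, 33 were lower and 2 higher at 16 h, where 10.4% of all genes were lower and 9.47% higher. At 48 h, 27 were lower and 2 higher, where 12.9% of all genes were lower and 9.07% higher.

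The median log2 change over the 55 genes was -0.06 at 4 h, -0.30 at 16 h and -0.22 at 48 h, and the medians over all genes were 0.00, 0.02 and 0.01 at the same times. Of the 55, 51 were below vehicle on average at 16 h and 49 at 48 h. Both DHT arrays lay below both vehicle arrays for 44 genes at 16 h, where 21.1% of all genes did so, and for 42 at 48 h, where 26.1% did. Both DHT arrays lay above both vehicle arrays for 2 genes, CCND1 and SLBP, at 16 h and at 48 h, where 25.9% of all genes did so at 16 h and 25.8% at 48 h. At 4 h both DHT arrays lay below both vehicle arrays for 21 of the 55 genes and above for 3, where 20.8% and 19.4% of all genes did so. The shift was present on each array. Relative to the vehicle mean, the median gene of the 55 was at -0.33 and -0.24 on the 2 DHT 16 h arrays and at -0.30 and -0.17 on the 2 DHT 48 h arrays. On the 2 DHT 4 h arrays it was at -0.04 and -0.09.

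**Figure D1:**
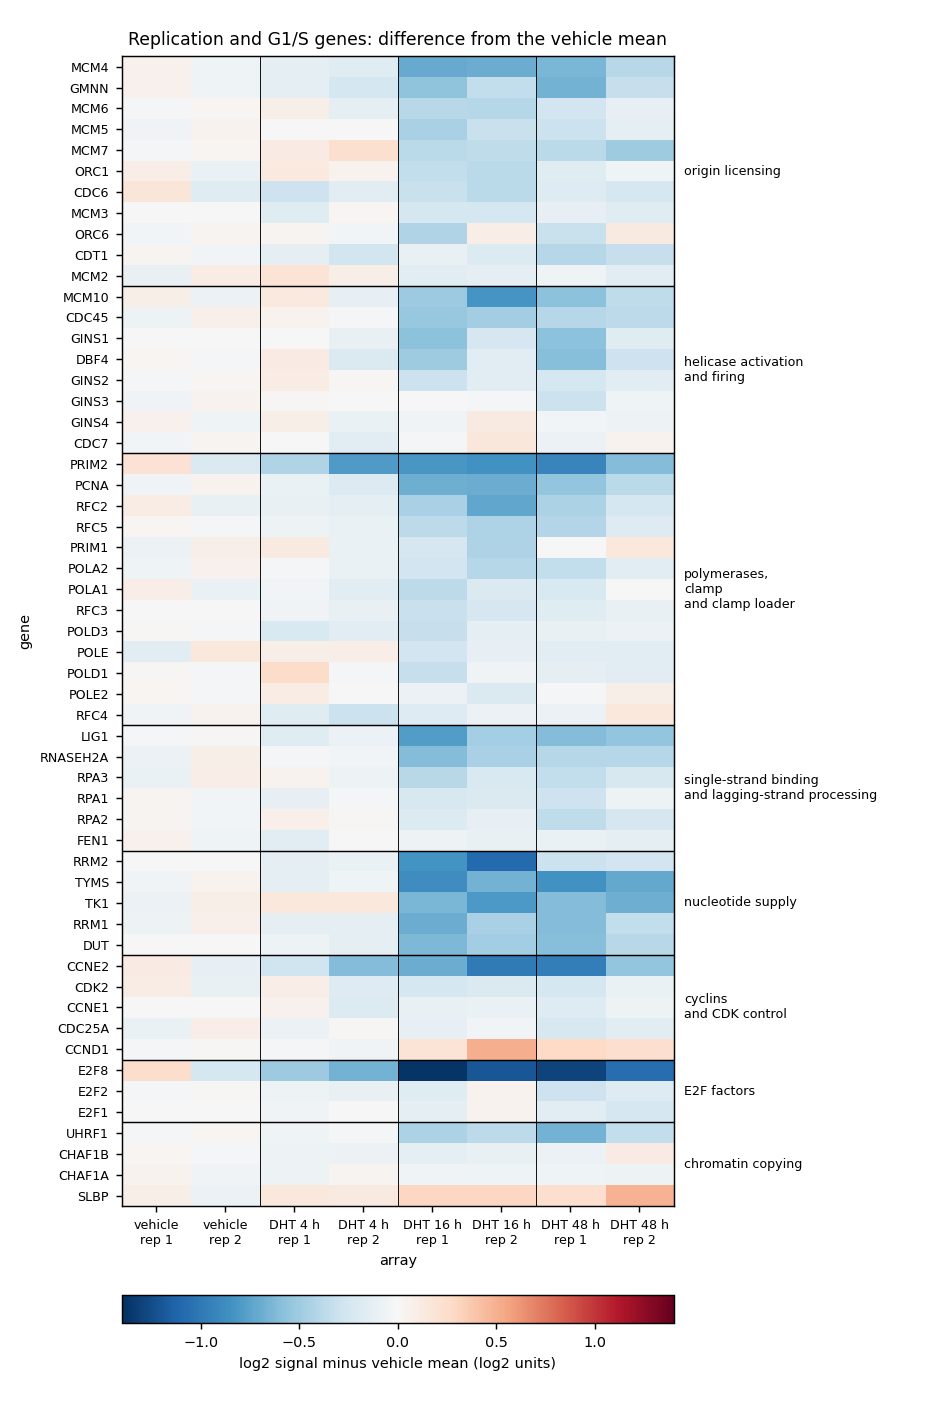
Heat map of the log2 signal of each of the 55 genes (rows, grouped by role and ordered by the change at 16 h) on each of the 8 arrays (columns), minus the mean of the 2 vehicle arrays. Blue is below and red above the vehicle mean; blue fills most of the DHT 16 h and DHT 48 h columns, where 51 and 49 of the 55 genes were below vehicle on average, and CCND1 and SLBP are red.

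The calls rested on few arrays. A fit that leaves out 1 array has fewer arrays for every gene, and the shares of all genes called in such fits are not given here. At 16 h, 9 genes were called when vehicle replicate 1 was left out and 13 when DHT 16 h replicate 2, the array that stood apart, was left out; the 6 lost without DHT 16 h replicate 2 were CCNE2, MCM10, MCM6, MCM7, RFC2 and RFC5. At 48 h, 6 were called when vehicle replicate 1 was dropped and 8 when vehicle replicate 2 was. Leaving out DHT 48 h replicate 1 gave 5 calls at 48 h, of which 1, SLBP, was higher. Of the 19 calls at 16 h, 7 were kept whichever array was left out, those of MCM4, PCNA, LIG1, TYMS, TK1, RRM2 and E2F8. Of the 16 calls at 48 h, 3 were kept in this way, those of TYMS, TK1 and E2F8. The 16 h calls nearest the threshold were MCM6, called at an adjusted p of 0.0422, and UHRF1, not called at 0.050. At 48 h they were CDT1, called at 0.0329, and MCM10, not called at 0.0540.

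By role, the enzymes that supply nucleotides had the lowest median change at both times. Their median log2 change was -0.72 at 16 h and -0.49 at 48 h, against -0.36 and -0.22 for origin licensing, -0.27 and -0.29 for helicase activation and firing, and -0.29 and -0.14 for polymerases, clamp and clamp loader. The medians were -0.26 and -0.29 for single-strand binding and lagging-strand processing, -0.09 and -0.17 for cyclins and CDK control, -0.06 and -0.23 for E2F factors, and -0.08 and -0.02 for chromatin copying. Differences between roles were not tested. The counts of called genes given below for each role can be set against the shares of all genes called lower. These were 4.30% at 16 h and 6.38% at 48 h. The lists are short, so a few calls in a list are not read as a fall of that role.

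**Figure D2:**
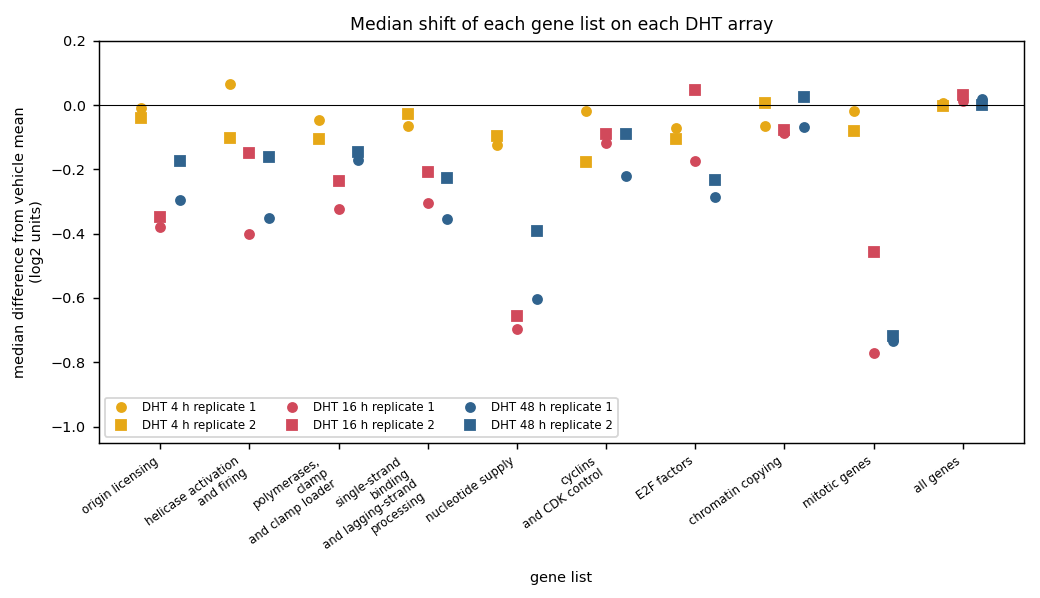
Median over the genes of each list of the log2 signal minus the vehicle mean (vertical axis, log2 units), on each of the 6 DHT arrays (circles, replicate 1; squares, replicate 2). The 5 genes of nucleotide supply and the 20 mitotic genes lie lowest at 16 h and 48 h, and all genes lie near 0.

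All 5 nucleotide supply genes were called lower after 16 h of DHT, and 4 of the 5 after 48 h. RRM2, the gene not called at 48 h, was below both vehicle arrays at that time. The shares of all genes called lower were 4.30% and 6.38%. TYMS, thymidylate synthase, which makes the thymidine nucleotide, had log2 signals of 12.26 and 12.35 in vehicle cells, 12.18 and 12.25 after 4 h of DHT, 11.43 and 11.65 after 16 h and 11.45 and 11.58 after 48 h. TK1, thymidine kinase of the salvage route, had 12.43 and 12.59 in vehicle cells, 12.66 and 12.66 after 4 h, 11.87 and 11.70 after 16 h and 11.91 and 11.83 after 48 h. For both genes the 16 h and 48 h arrays lay well below the vehicle and 4 h arrays, with no overlap. The log2 change of TYMS was -0.76 ± 0.10 at 16 h and -0.78 ± 0.10 at 48 h (SE, limma adjusted p = 0.0011 and 0.00055), 59.0% and 58.0% of vehicle on the linear scale. That of TK1 was -0.72 ± 0.10 at 16 h and -0.64 ± 0.10 at 48 h (limma adjusted p = 0.0013 and 0.0018).

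RRM2, the regulated small subunit of ribonucleotide reductase, followed a different course. It had log2 signals of 13.38 and 13.36 in vehicle cells, 13.23 and 13.27 after 4 h of DHT, 12.53 and 12.28 after 16 h and 13.07 and 13.11 after 48 h. The 16 h arrays were the lowest by a wide margin, and the 48 h arrays lay between them and the vehicle arrays. The log2 change against vehicle was -0.96 ± 0.10 at 16 h (SE, limma adjusted p = 0.00020), 51.3% of vehicle, and -0.28 ± 0.10 at 48 h (limma adjusted p = 0.12), 82.2% of vehicle. A second RRM2 probe set had 11.60 and 11.86 at 48 h, against 12.32 and 12.36 in vehicle cells, and was called lower at both times, at -0.91 and -0.62, in a fit of all probe sets with 1 symbol. The 2 probe sets thus differed in how near to vehicle RRM2 stood at 48 h.

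RRM1, the large subunit of ribonucleotide reductase, changed by -0.57 ± 0.12 at 16 h and -0.48 ± 0.12 at 48 h (limma adjusted p = 0.014 and 0.027). DUT, the dUTPase that keeps uracil out of DNA, changed by -0.56 ± 0.10 and -0.49 ± 0.10 at the same times (limma adjusted p = 0.0066 and 0.0097), and both of its other probe sets were called lower at both times. The other TK1 probe set was also called lower at both times. Of the 2 other TYMS probe sets, 1 was called lower at both times and the dimmer one was not called, at -0.13 and -0.10 (limma adjusted p over all probe sets 0.52 and 0.60). Without DHT 48 h replicate 1 the 48 h calls of DUT and RRM1 were lost, with limma adjusted p of 0.11 for DUT and 0.25 for RRM1.

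**Figure D3:**
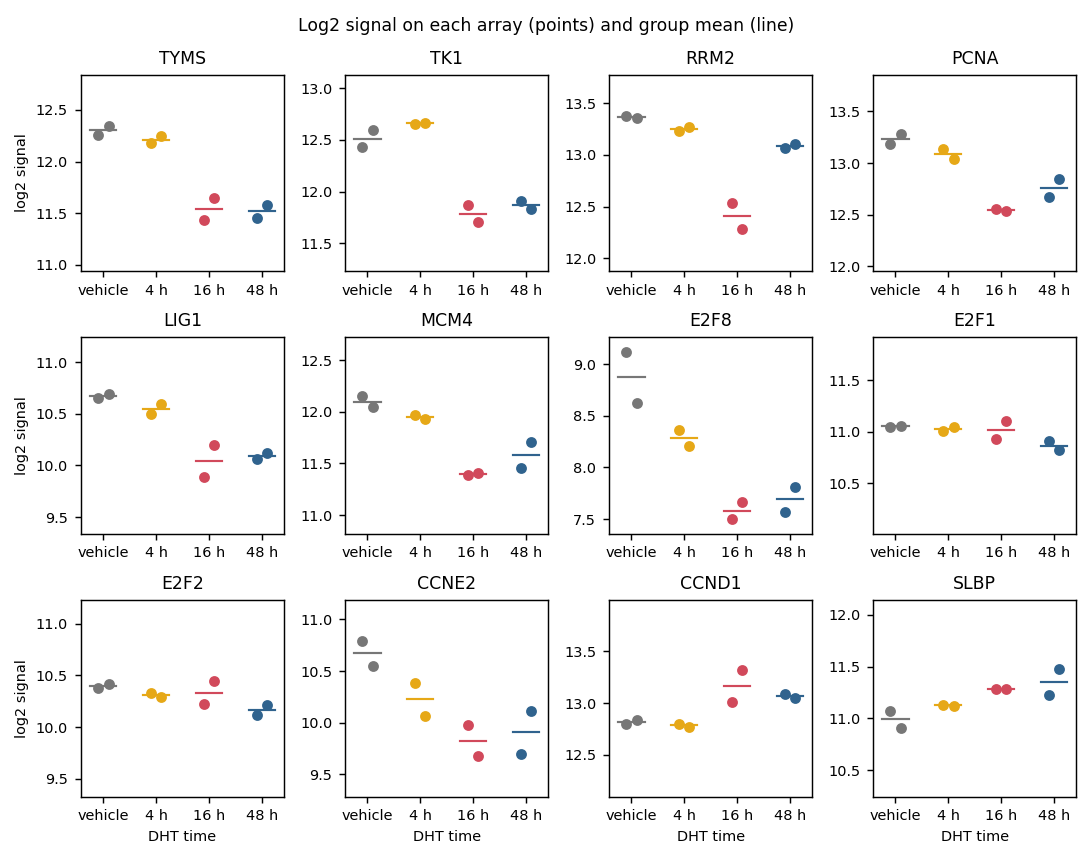
Log2 signal (vertical axes, each spanning the same number of log2 units) of 12 genes on each array (points) with the mean of the 2 arrays (line), for vehicle and for DHT at 4 h, 16 h and 48 h. TYMS, TK1, PCNA, LIG1, MCM4 and E2F8 lie lower at 16 h and 48 h than in vehicle cells, and RRM2 is lowest at 16 h. E2F1 and E2F2 stay within a narrow band, with their 48 h points below the vehicle points.

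Of the 11 origin licensing genes, 4 were called lower at 16 h and 4 at 48 h, against 4.30% and 6.38% of all genes. All 11 were below vehicle on average at both times. The 16 h calls were subunits of the helicase, MCM4, MCM5, MCM6 and MCM7, and the 48 h calls were MCM4, MCM7, CDT1, which loads the helicase, and GMNN (geminin), which blocks CDT1. MCM4 had log2 signals of 12.15 and 12.04 in vehicle cells, 11.97 and 11.93 after 4 h, 11.39 and 11.41 after 16 h and 11.45 and 11.71 after 48 h. GMNN had 10.72 and 10.60 in vehicle cells, 10.53 and 10.42 after 4 h, 10.10 and 10.31 after 16 h and 10.00 and 10.34 after 48 h. In both genes every 16 h and 48 h array was below every vehicle array. ORC6, a subunit of the origin recognition complex, had 10.75 and 10.83 in vehicle cells, 10.82 and 10.74 after 4 h, 10.37 and 10.88 after 16 h and 10.47 and 10.91 after 48 h, so its replicates at 16 h and 48 h lay on both sides of vehicle.

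The log2 change of MCM4 was -0.70 ± 0.10 at 16 h and -0.52 ± 0.10 at 48 h (SE, limma adjusted p = 0.0020 and 0.0088). GMNN was at -0.46 ± 0.12 and -0.49 ± 0.12 (limma adjusted p = 0.052 and 0.030), MCM7 at -0.37 ± 0.09 and -0.44 ± 0.09 (0.036 and 0.012) and CDT1 at -0.14 ± 0.09 and -0.36 ± 0.09 (0.45 and 0.033). MCM5 and MCM6 were both at -0.39 ± 0.10 at 16 h (limma adjusted p = 0.039 and 0.042) and at -0.22 and -0.19 at 48 h, when neither was called. The other helicase subunits, MCM2 and MCM3, were not called: MCM2 was at -0.14 ± 0.10 and MCM3 at -0.24 ± 0.10 at 16 h, and they were at -0.11 and -0.14 at 48 h. ORC1 and CDC6, loading factors, were at -0.36 ± 0.10 and -0.34 ± 0.12 at 16 h (limma adjusted p = 0.053 and 0.11) and at -0.12 and -0.22 at 48 h, and were not called. The MCM5, MCM6 and MCM7 calls at 16 h were each lost without vehicle replicate 1. At 48 h the MCM4, MCM7, CDT1 and GMNN calls were each lost without that array too. Those of MCM4, CDT1 and GMNN were also lost without DHT 48 h replicate 1, and those of MCM7 and CDT1 without DHT 48 h replicate 2. The CDT1 call was lost on the mean of all probe sets and after a repeat of the quantile normalisation. The MCM4 call at 48 h was lost with other choices of probe set.

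Of the 8 genes of helicase activation and firing, 2 were called lower after 16 h of DHT and 1 after 48 h. Among all genes the shares called lower were 4.30% and 6.38%. MCM10, which helps activate the helicase, had log2 signals of 10.09 and 9.92 in vehicle cells, 10.14 and 9.89 after 4 h, 9.49 and 9.17 after 16 h and 9.43 and 9.65 after 48 h. CDC45, a part of the active helicase, had log2 changes of -0.51 ± 0.09 at 16 h and -0.38 ± 0.09 at 48 h (SE, limma adjusted p = 0.0066 and 0.022). The values of MCM10 were -0.67 ± 0.13 and -0.46 ± 0.13 (limma adjusted p = 0.011 and 0.054). Both genes were below every vehicle array at 16 h and 48 h.

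Neither subunit of the firing kinase was called. DBF4, the regulatory subunit, had 10.62 and 10.57 in vehicle cells, 10.71 and 10.39 after 4 h, 10.09 and 10.45 after 16 h and 10.00 and 10.30 after 48 h, with log2 changes of -0.32 ± 0.15 and -0.44 ± 0.15 that were not called (limma adjusted p = 0.25 and 0.090). CDC7, the catalytic subunit, had 10.14 and 10.21 in vehicle cells, 10.17 and 10.01 after 4 h, 10.15 and 10.33 after 16 h and 10.10 and 10.23 after 48 h, and its groups overlapped. Of the GINS subunits, GINS1 was at -0.41 ± 0.14 and GINS2 at -0.23 ± 0.10 at 16 h, GINS3 at -0.02 and GINS4 at 0.04. At 48 h they were at -0.37, -0.20, -0.18 and -0.05 in the same order, and none of them was called at any time. The 16 h call of MCM10 was lost when either vehicle replicate 1 or DHT 16 h replicate 2 was left out.

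Of the 13 polymerase, clamp and clamp loader genes, 4 were called lower after 16 h of DHT, namely PCNA, PRIM2, RFC2 and RFC5. At 48 h 2 were, PCNA and PRIM2. The shares of all genes called lower were 4.30% and 6.38%. None of POLA1, POLA2, POLD1, POLD3, POLE and POLE2 was called. PCNA, the sliding clamp, had log2 signals of 13.18 and 13.28 in vehicle cells, 13.14 and 13.04 after 4 h, 12.55 and 12.53 after 16 h and 12.68 and 12.85 after 48 h. PRIM2, the large subunit of the primase that lays RNA primers, had 8.14 and 7.74 in vehicle cells, 7.52 and 7.14 after 4 h, 7.12 and 7.09 after 16 h and 7.01 and 7.33 after 48 h. All DHT arrays lay below the vehicle arrays in both genes, and the PRIM2 signal was dim, below the median of 8.44 over all genes. PRIM1, the small primase subunit, had 10.44 and 10.61 in vehicle cells, 10.65 and 10.43 after 4 h, 10.29 and 10.09 after 16 h and 10.53 and 10.67 after 48 h, lowest at 16 h and overlapping vehicle at 48 h.

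PCNA changed by -0.69 ± 0.10 at 16 h and -0.47 ± 0.10 at 48 h (SE, limma adjusted p = 0.0015 and 0.010), and PRIM2 by -0.83 ± 0.16 and -0.77 ± 0.16 (limma adjusted p = 0.0090 and 0.011). At 4 h PRIM2 was at -0.61 ± 0.16, which was not called (limma adjusted p = 0.29). RFC2 and RFC5, clamp loader subunits, were at -0.59 ± 0.12 and -0.40 ± 0.10 at 16 h (limma adjusted p = 0.012 and 0.033), and RFC3 and RFC4, at -0.27 and -0.13, were not called. The polymerase subunits POLA1, POLA2, POLD1, POLD3, POLE and POLE2 ranged from -0.33 to -0.15 at 16 h and from -0.25 to 0.03 at 48 h, with none called. PRIM2 was no longer called at 16 h without vehicle replicate 1 (limma adjusted p = 0.11), nor at 48 h without DHT 48 h replicate 1 (limma adjusted p = 0.14).

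**Figure D4:**
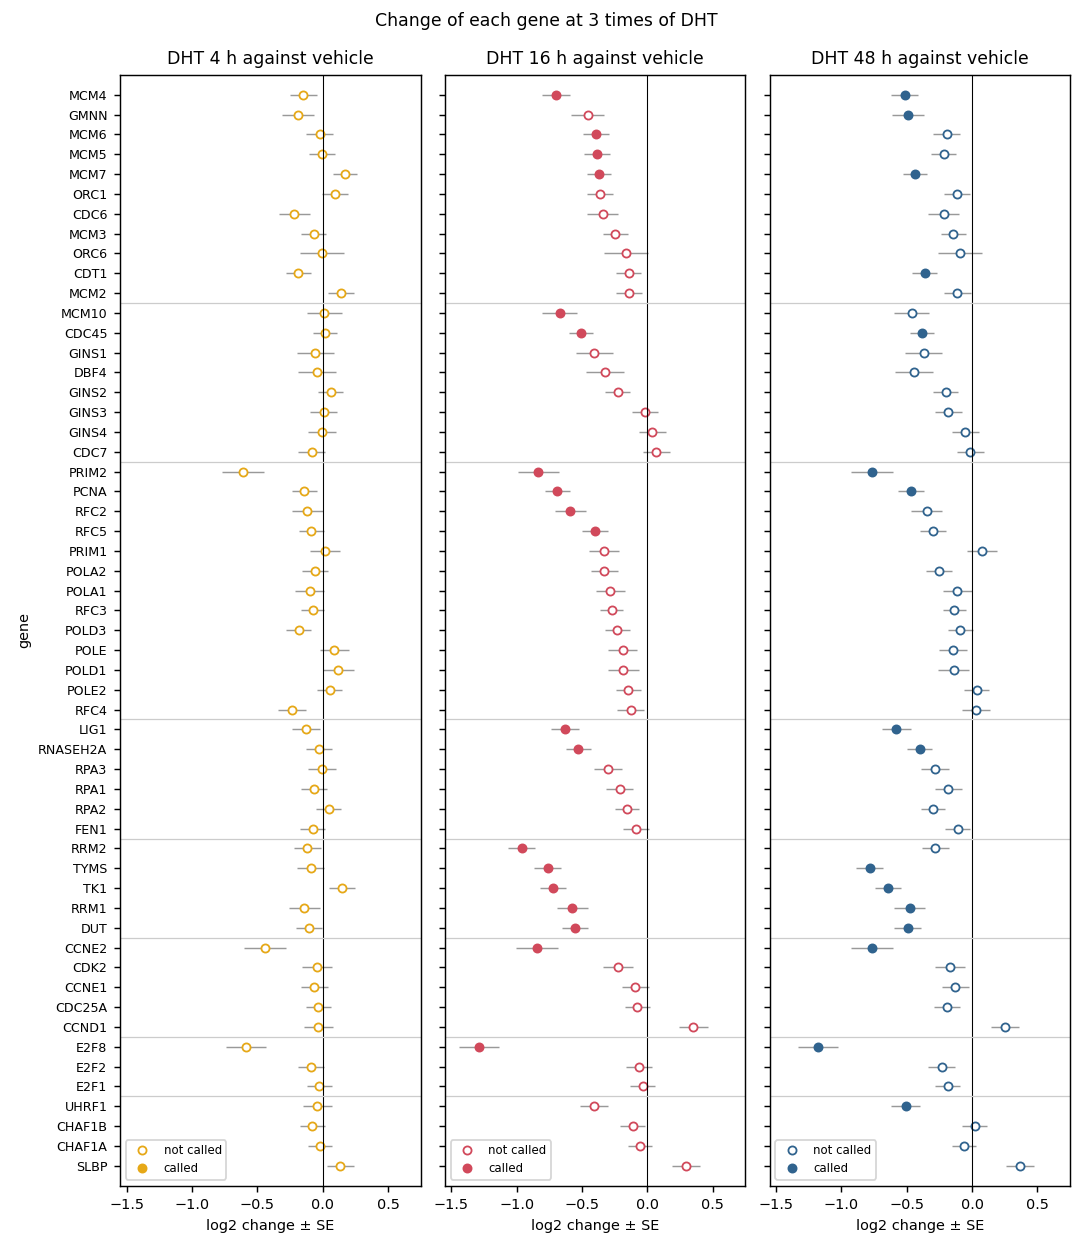
Log2 change of each of the 55 genes (rows, in the order of the heat map, with lines between roles) against vehicle after DHT for 4 h, 16 h and 48 h, with its standard error from limma (n = 2 arrays per group). Filled points passed an adjusted p of 0.05: 0 at 4 h, 19 at 16 h and 16 at 48 h, all to the left of 0.

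Among the 6 genes of single-strand binding and lagging-strand processing, LIG1 and RNASEH2A were called lower at both 16 h and 48 h. The shares of all genes called lower at these times were 4.30% and 6.38%. LIG1, the ligase that joins Okazaki fragments, had log2 signals of 10.65 and 10.69 in vehicle cells, 10.50 and 10.59 after 4 h, 9.89 and 10.19 after 16 h and 10.07 and 10.12 after 48 h. RNASEH2A, catalytic subunit of the RNase that removes ribonucleotides from DNA, had 11.87 and 12.03 in vehicle cells, 11.93 and 11.91 after 4 h, 11.35 and 11.50 after 16 h and 11.55 and 11.55 after 48 h. The 16 h and 48 h arrays of both genes lay below all vehicle and 4 h arrays. FEN1, the flap endonuclease, had 11.05 and 10.93 in vehicle cells, 10.83 and 10.9996 after 4 h, 10.92 and 10.89 after 16 h and 10.90 and 10.86 after 48 h. Its 16 h and 48 h arrays lay below both vehicle arrays by a small margin. The changes of LIG1 were -0.63 ± 0.11 at 16 h and -0.58 ± 0.11 at 48 h (SE, limma adjusted p = 0.0052 and 0.0060), and those of RNASEH2A were -0.53 ± 0.10 and -0.40 ± 0.10 (limma adjusted p = 0.0071 and 0.023). FEN1 was at -0.09 ± 0.10 and -0.11 ± 0.10 (limma adjusted p = 0.69 and 0.56). RPA1, RPA2 and RPA3, the single-strand binding complex, were at -0.21, -0.15 and -0.30 at 16 h and at -0.18, -0.30 and -0.28 at 48 h, not called. The 48 h call of LIG1 was lost without DHT 48 h replicate 1 (limma adjusted p = 0.064).

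Of the 5 cyclin and CDK control genes, CCNE2 was called lower at 16 h and 48 h and the other 4 were not called. Among all genes, 4.30% and 6.38% were called lower at these times. CCNE2, cyclin E2, had log2 signals of 10.79 and 10.55 in vehicle cells, 10.39 and 10.07 after 4 h, 9.97 and 9.68 after 16 h and 9.70 and 10.11 after 48 h. CDC25A, a phosphatase that activates CDK2, had 10.20 and 10.39 in vehicle cells, 10.22 and 10.31 after 4 h, 10.18 and 10.26 after 16 h and 10.07 and 10.13 after 48 h. CCND1, cyclin D1, had 12.80 and 12.84 in vehicle cells, 12.80 and 12.77 after 4 h, 13.01 and 13.32 after 16 h and 13.09 and 13.05 after 48 h. The CCNE2 arrays stepped down by 16 h, the 16 h arrays of CDC25A lay within or at the edge of the vehicle range, and CCND1 was above both vehicle arrays at 16 h and 48 h.

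CCNE2 changed by -0.84 ± 0.16 at 16 h and -0.76 ± 0.16 at 48 h (SE, limma adjusted p = 0.0088 and 0.011), 55.8% and 58.9% of vehicle. Its paralogue CCNE1, cyclin E1, was at -0.09 ± 0.10 and -0.13 ± 0.10 (limma adjusted p = 0.69 and 0.53), and the kinase CDK2 at -0.23 ± 0.12 and -0.17 ± 0.12 (limma adjusted p = 0.32 and 0.45). CCND1 was at 0.35 ± 0.11 and 0.25 ± 0.11 (limma adjusted p = 0.083 and 0.20). The CCND1 value at 16 h passed the threshold under some settings, among them the fit without DHT 16 h replicate 1 (log2 change 0.51, limma adjusted p = 0.015). The CCNE2 call at 16 h was lost when either vehicle replicate 1 or DHT 16 h replicate 2 was left out, and the one at 48 h when either vehicle replicate 1 or DHT 48 h replicate 1 was.

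Among the 3 E2F factors, the repressor E2F8 had the largest fall of all 55 genes at both times. It had log2 signals of 9.12 and 8.62 in vehicle cells, 8.36 and 8.21 after 4 h, 7.50 and 7.67 after 16 h and 7.57 and 7.81 after 48 h. The activators were not called: E2F1 had 11.05 and 11.05 in vehicle cells, 11.004 and 11.05 after 4 h, 10.93 and 11.11 after 16 h and 10.91 and 10.82 after 48 h. E2F2 had 10.38 and 10.42 in vehicle cells, 10.33 and 10.29 after 4 h, 10.22 and 10.44 after 16 h and 10.11 and 10.22 after 48 h. E2F8 was already below both vehicle arrays at 4 h, and in E2F1 and E2F2 the 16 h arrays lay on both sides of the vehicle arrays. The 48 h arrays of E2F1 and E2F2 lay below both vehicle arrays.

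The log2 change of E2F8 was -0.59 ± 0.15 at 4 h, -1.29 ± 0.15 at 16 h and -1.18 ± 0.15 at 48 h (SE, limma adjusted p = 0.29, 0.00047 and 0.00052), which is 41.0% of vehicle at 16 h and 44.1% at 48 h. E2F1 was at -0.04 ± 0.10 and -0.19 ± 0.10 at 16 h and 48 h (limma adjusted p = 0.89 and 0.28), and E2F2 at -0.06 ± 0.10 and -0.23 ± 0.10 (limma adjusted p = 0.80 and 0.20). The difference between E2F8 and the activators was not tested.

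Of the 4 chromatin copying genes, UHRF1 was called lower at 48 h and none at 16 h, against 6.38% and 4.30% of all genes. UHRF1, which brings the maintenance DNA methyltransferase to new DNA, had log2 signals of 12.08 and 12.13 in vehicle cells, 12.04 and 12.08 after 4 h, 11.66 and 11.73 after 16 h and 11.44 and 11.76 after 48 h. CHAF1A, a histone chaperone subunit, had 9.69 and 9.58 in vehicle cells, 9.56 and 9.67 after 4 h, 9.58 and 9.58 after 16 h and 9.58 and 9.57 after 48 h. SLBP, which binds histone mRNA, had 11.07 and 10.91 in vehicle cells, 11.13 and 11.12 after 4 h, 11.28 and 11.28 after 16 h and 11.23 and 11.48 after 48 h. UHRF1 lay below and SLBP above all vehicle arrays at 16 h and 48 h. The values of UHRF1 were -0.41 ± 0.11 and -0.51 ± 0.11 (SE, limma adjusted p = 0.050 and 0.014), and those of SLBP 0.29 ± 0.11 and 0.36 ± 0.11 (limma adjusted p = 0.14 and 0.056). The SLBP value at 48 h passed the threshold under some settings, with limma adjusted p of 0.048 on the mean of all probe sets, 0.022 after quantile normalisation again, 0.048 with equal housekeeping signal, 0.036 with an intensity trend and 0.0498 without DHT 48 h replicate 1. CHAF1A was at -0.05 and -0.06 and CHAF1B at -0.11 and 0.02 at 16 h and 48 h, and neither was called. The UHRF1 call was lost without vehicle replicate 1, vehicle replicate 2 or DHT 48 h replicate 1.

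The DHT times were also tested against each other. At 16 h against 4 h, 13 of the 55 genes were called lower and 0 higher, where 1.77% of all genes were called lower and 1.28% higher. TK1 changed by -0.87 ± 0.10, RRM2 by -0.84 ± 0.10 and TYMS by -0.67 ± 0.10 between these times (SE, limma adjusted p = 0.00062, 0.00092 and 0.0046), and the other 10 were E2F8, MCM10, PCNA, MCM4, MCM7, CDC45, LIG1, RNASEH2A, DUT and ORC1. Without DHT 4 h replicate 1, 3 genes were called, without DHT 4 h replicate 2, 2 were, and without DHT 16 h replicate 2, 8 were. TK1 and RRM2 were called whichever array was left out.

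At 48 h against 16 h, 0 of the 55 genes were called lower and 1, RRM2, higher, where 0.480% of all genes were called lower and 0.349% higher. RRM2 was 0.68 ± 0.10 log2 units higher at 48 h than at 16 h (SE, limma adjusted p = 0.010). That call was lost when DHT 16 h replicate 2 or either DHT 48 h array was left out, and with the other RRM2 probe set. In all, 5 genes had an unadjusted p below 0.05 in this comparison, 1 lower and 4 higher, which is 9.09% of the 55, against 10.7% of all genes. Of the 51 genes below vehicle at 16 h, 37 stood closer to vehicle at 48 h than at 16 h. The 51 were picked by their own 16 h values and all genes were not counted in the same way, so no return toward vehicle is read from this count. Calls against vehicle overlapped in part: 13 genes were called lower at both 16 h and 48 h, 6 at 16 h only, 3 at 48 h only and 33 at neither time. Being called at 1 of these times and not at the other does not show a difference between them.

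The MDA-MB-453 response was also read in related genes outside the 55, from lists that were likewise chosen with earlier results known. The calls in each list can be set against all genes, of which 4.30% were called lower at 16 h and 6.38% at 48 h. The shares of all genes called higher were 2.55% and 3.13%. Of 18 further origin and fork factors, 4 were lower at 16 h and 4 at 48 h, and 0 were higher. They included the clamp loader subunit DSCC1 (-0.53 ± 0.10 at 16 h and -0.54 ± 0.10 at 48 h) and the fork protection factor TIMELESS (-0.75 ± 0.12 and -0.54 ± 0.12). The checkpoint adaptor CLSPN was called at 48 h (-0.52 ± 0.13), as was TOPBP1 (-0.41 ± 0.12). Of 10 further polymerase, clamp loader and topoisomerase genes, 2 were lower at 16 h and 1 at 48 h, TOP2A at -0.83 ± 0.15. None of 9 other nucleotide enzymes was called lower at either time, and 1, the dCTP pyrophosphatase DCTPP1, was called higher at 16 h (0.38 ± 0.10, limma adjusted p = 0.035). The median log2 change of the 9 was -0.002 at 16 h and -0.22 at 48 h, where that of the 55 genes was also -0.22. At 48 h both DHT arrays lay below both vehicle arrays for 4 of the 9 and above for 2, where 26.1% and 25.8% of all genes did so.

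Of 16 further E2F, DP, pocket protein and MuvB genes, 5 were lower at 16 h and 6 at 48 h, where 4.30% and 6.38% of all genes were. E2F7, the partner repressor of E2F8, changed by -0.73 ± 0.13 and -0.62 ± 0.13 (SE, limma adjusted p = 0.0057 and 0.010). FOXM1, the mitotic gene activator, changed by -0.62 ± 0.15 and -0.95 ± 0.15 and the MuvB subunit LIN9 by -0.87 ± 0.18 and -0.78 ± 0.18. TFDP2 and E2F6 were called at 48 h, at -0.37 ± 0.10 and -0.35 ± 0.10. RB1, the pocket protein that restrains E2F, was at -0.19 ± 0.13 and -0.15 ± 0.13 (limma adjusted p = 0.49 and 0.56).

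Of 16 further cyclins, CDKs and CDK inhibitors, 4 were lower at 16 h and 6 at 48 h, where 4.30% and 6.38% of all genes were. The called genes in this list were of opposing functions. CCNA2, cyclin A2 of S phase, changed by -0.99 ± 0.12 and -0.79 ± 0.12 (SE, limma adjusted p = 0.00051 and 0.0014). The CDK inhibitors CDKN1A (p21) and CDKN1B (p27) were lower too. CDKN1A had log2 signals of 9.45 and 9.50 after 16 h and 9.49 and 9.53 after 48 h, and 9.97 and 10.26 in vehicle cells, with changes of -0.64 ± 0.12 and -0.61 ± 0.12 (limma adjusted p = 0.0071 and 0.0070). CDKN1B had 11.47 and 11.62 after 16 h and 11.14 and 11.46 after 48 h, and 12.07 and 12.08 in vehicle cells, with changes of -0.53 ± 0.12 and -0.77 ± 0.12 (limma adjusted p = 0.020 and 0.0016). FBXO5, an inhibitor of the anaphase-promoting complex, changed by -0.80 ± 0.09 and -0.44 ± 0.09, and CDKN2D was called at 48 h at -0.38 ± 0.10.

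Of 8 further histone chaperone and DNA methylation genes, 3 were lower at 16 h and 3 at 48 h. At both times these were the remodeller HELLS (-0.77 ± 0.12 at 16 h and -0.64 ± 0.12 at 48 h), the chaperone ASF1B (-0.33 ± 0.09 and -0.47 ± 0.09) and the methyltransferase DNMT1 (-0.37 ± 0.10 and -0.35 ± 0.10). Of 8 checkpoint and repair genes measured, 4 were lower at 16 h and 3 at 48 h, including RAD51AP1 (-0.86 ± 0.15 and -0.71 ± 0.15), the exonuclease EXO1 (-0.67 ± 0.10 and -0.52 ± 0.10) and the checkpoint kinase CHEK1 (-0.52 ± 0.12 and -0.48 ± 0.12). Of 20 mitotic genes taken for comparison, 15 were lower at 16 h and 16 at 48 h, where 4.30% and 6.38% of all genes were. The mitotic medians of the log2 change were -0.63 and -0.73, and the replication and G1/S medians were -0.30 and -0.22. KIF23 changed by -0.96 ± 0.14 and -1.16 ± 0.14, DLGAP5 by -0.93 ± 0.16 and -1.0 ± 0.16 and CDK1 by -0.87 ± 0.13 and -0.44 ± 0.13. NUSAP1 was called at 48 h, at -0.40 ± 0.11. The difference between the mitotic and the replication genes was not tested.

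Of the 55 genes, 30 had more than 1 probe set, 48 others in all. Of these 48, 35 had the sign of the chosen probe set at 16 h and 37 at 48 h; 7 were called lower at 16 h and 5 at 48 h, and 0 were called higher. In MCM4 the probe sets disagreed. The brightest of its other 4 had log2 signals of 10.22 and 9.09 at 16 h and 10.74 and 11.17 at 48 h, against 10.93 and 10.85 in vehicle cells, so that both of its 16 h arrays lay below vehicle and its 48 h change was 0.07, where the chosen probe set was at -0.52. Another MCM4 probe set, the dimmest, was at 0.19 at 16 h and 0.29 at 48 h. The other genes with a probe set of opposite sign at 16 h were CCNE1, CDT1, CHAF1A, E2F1, GINS2, GINS4, POLA2 and RFC3, and at 48 h CCNE1, CDK2, CDT1, CHAF1A, E2F2, GINS2 and POLA2. None of these probe sets was called, and their changes lay between -0.40 and 0.24.

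The DHT 16 h replicate 2 array was low on several of the other probe sets. On 5 of the 48 it read more than 1 log2 unit below DHT 16 h replicate 1, namely 2 of MCM4 and 1 each of RRM1, RFC3 and CCNE2, and no other group had such a probe set. The other RRM1 probe set had 9.27 on that array and 10.43 on its replicate, and the other CCNE2 probe set had 7.71 and 9.19. Among the 55 chosen probe sets the difference of that array from its replicate ranged from -0.32 to 0.51, with a median of 0.05. The part of the 3′ to 5′ difference in these values was not tested.

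**Figure D5:**
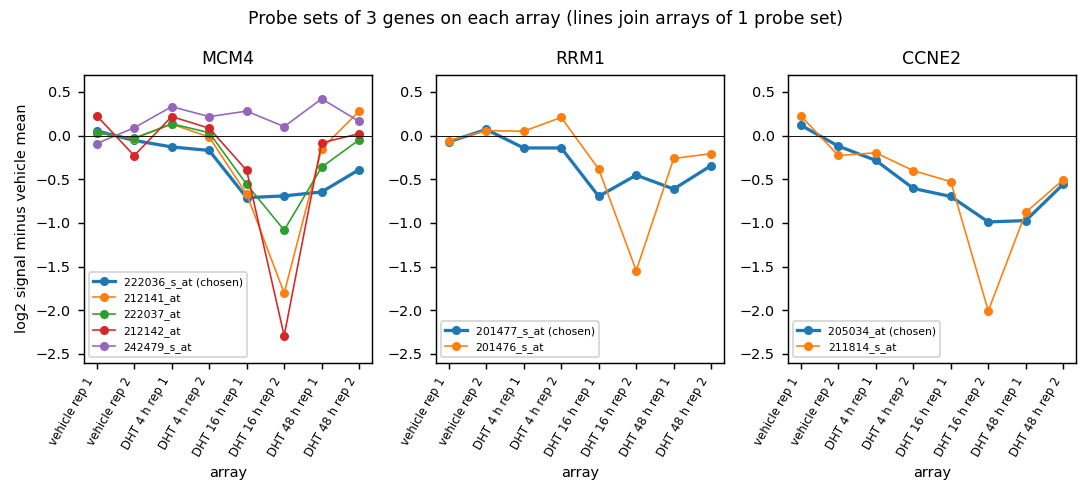
Log2 signal minus the vehicle mean (vertical axis) of every probe set of MCM4, RRM1 and CCNE2 on each of the 8 arrays, with the chosen probe set as a thick line. The chosen probe sets stay close between the 2 DHT 16 h arrays, and several others dip on DHT 16 h replicate 2, among them the other RRM1 probe set at 9.27, against 10.43 on replicate 1.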

How the data were processed

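The deposited table held log2 signals of 54675 probe sets on 8 arrays, made by the authors with RMA (robust multi-array average, which corrects background, normalises quantiles and sums up probes), per the submitters' processing notes, with no version named. Values ran from 3.68 to 15.6, and no further normalisation was applied. Control probe sets (62) were left out; 41091 probe sets had 1 symbol in GEO's platform annotation, 1801 several and 11721 none, giving 19775 genes. Of the chosen probe sets of the 55 genes, 21 were of the _s_at or _x_at kind, which can match more than 1 transcript.

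A model with 4 group means was fitted to all genes with limma 3.58.1 in R 4.3.3 (lmFit and eBayes, 4 residual and 7.21 prior degrees of freedom, two-sided, Benjamini-Hochberg over all genes). Errors are standard errors. The smallest two-sided p of an exact permutation test of 2 against 2 arrays is 0.333, so none was run. The number of arrays limits the precision. The fit was tested on simulated data. Members, role and pathway lists, and tests were chosen with earlier results of these data known. Values on every array are given for the 2 lowest and the highest log2 change at 48 h and the lowest at 16 h in each role. From each pathway list the called genes with the 2 lowest and 2 highest changes at 48 h were named, and CDKN1A, CDKN1B, RB1, E2F7 and CCNA2 always. Some listed genes are not analysed here.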

Additional observations from a re-analysis of the deposited data

Results flagged for a closer look

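There are 14 results here, in each of which a test of the difference between 2 DHT times passed an adjusted p of 0.05 in limma. At 16 h against 4 h, the log2 change was -0.87 for TK1, -0.84 for RRM2, -0.70 for E2F8, -0.68 for MCM10 and -0.67 for TYMS. It was -0.55 for both MCM4 and PCNA, -0.54 for MCM7, -0.52 for CDC45, -0.50 for both LIG1 and RNASEH2A, and -0.45 for both ORC1 and DUT. At 48 h against 16 h, RRM2 was at 0.68. Groups of 2 arrays are too small for a test of single outlying arrays.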

How the results depend on the processing

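No setting gave a called gene at 4 h. At 16 h, leaving out 1 array gave 9 to 20 called genes (19 with all arrays), at 48 h 5 to 18 (16), at 16 h against 4 h 2 to 12 (13) and at 48 h against 16 h 0 to 1 (1); in each such fit the lone array of a group is assumed to vary like the other groups. With only the 4 arrays compared in the fit, 8 genes were called at 16 h against 4 h and 0 at 48 h against 16 h; with probe sets neither _s_at nor _x_at, 0 were called at 48 h against 16 h. An adjustment over all probe sets, chosen after seeing the data, gave 15 called genes at 16 h and 11 at 48 h against vehicle. It gave 6 at 16 h against 4 h and 0 at 48 h against 16 h. A repeat of the quantile normalisation, equal housekeeping signal, the mean of all probe sets, removal of dim genes and an intensity trend kept these counts within 1.5 times of those reported. The labels give replicate numbers but no shared day or batch, so whether arrays of the same number were handled together is not known. Correlations of replicate differences between groups ran from -0.24 to 0.20. With the replicate number as a block, 0, 18, 16, 13 and 1 genes were called in the order above. At 16 h MCM6 and MCM7 were lost and UHRF1 was added. Of the log2 changes of the described genes under all settings, 710 kept direction and call, 31 gained and 26 lost a call, and 1 reversed: MCM4 at 48 h was 0.066 with probe sets neither _s_at nor _x_at (adjusted p = 0.93); the cause was not tested. A shorter E2F motif, without its first T, was in 33 of the 45 windows.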
